A study of Mus musculus with 11 samples.

Results

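The 5 genes of the chloride intracellular channel (CLIC) family, Clic1, Clic3, Clic4, Clic5 and Clic6, were examined in the cochlear transcriptome of mice lacking ATF6, an endoplasmic reticulum stress sensor and transcription factor. They were taken by gene symbol from 18667 genes with values in both genotypes, and all 5 were among the 16169 genes that entered the fits, whose mean reached 0.1 FPKM, a fragment count scaled to transcript length and library size. The RNA came from whole cochleae of 2-month-old mice on the C57BL/6J background, of which 5 libraries were from Atf6+/+ mice (labelled WT) and 6 from Atf6-/- mice (labelled Atf6KO). The Atf6-/- mice carry a germline premature stop codon in exon 4 in every cell, and the animals of both genotypes carry the Cdh23ahl allele of the C57BL/6J strain, which brings early-onset, age-related hearing loss. The study used females and males, and the sex of each library is not given in the labels. The labels do not say whether each library came from a separate animal, so the p-values below measure the spread between these libraries only.

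CLIC proteins are small and have a fold related to that of glutathione transferases. They exist both as soluble proteins and in association with membranes, and although named as channels they are known for work at the actin cytoskeleton and in membrane traffic. In the inner ear the best known member is Clic5, which sits at the base of the stereocilia of hair cells with radixin, taperin, the receptor phosphatase PTPRQ and myosin VI, and whose loss in the jitterbug mouse causes deafness and vestibular dysfunction.

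The family was selected on its FPKM values in Atf6-/- against Atf6+/+ libraries, which were already known, so that comparison is described below, no p-value is given for a member, and counts of members past a threshold are descriptions that test nothing. Atf6 itself checked the labels. It was listed at 10.4, 9.99, 10.6, 8.39 and 8.25 FPKM in Atf6+/+ replicates 1 to 5, and at 3.83 to 4.59 FPKM in the Atf6-/- libraries, with a median of 4.23. The groups did not overlap, and Atf6 transcript was lower in Atf6-/- cochleae, with a log2 difference of -1.13 (SE 0.084, adjusted p = 5.17e-05 in limma).

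The libraries also carried RNA of other cells. Transcripts of hair cells, outer hair cells, supporting cells and the stria vascularis were present in all 11 libraries, and no marker of any of the 16 lists was at 0 in every library. Markers of blood and marrow cells differed between the libraries. Averaged on the log2 scale over the lists for neutrophils, erythroid cells and B cells, they ran from 3.20 to 5.33 in Atf6+/+ libraries and from 1.72 to 3.53 in Atf6-/- libraries, highest in Atf6+/+ replicates 3 and 4, at 5.33 and 4.61. This average is called the marrow score below. The members are therefore also given with the score as a covariate and without those 2 libraries. The score averaged 4.11 in Atf6+/+ and 2.86 in Atf6-/- libraries. The fit with the covariate therefore cannot fully tell the score and genotype apart. In bulk tissue, fewer cells of a type and less RNA per cell cannot be told apart.

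The promoters of Clic4 and Clic1 are shown because these are the most abundant members and their differences between genotypes had opposite signs. ATF6 acts together with the CCAAT-binding factor NF-Y at the endoplasmic reticulum stress response element, a CCAAT and a CCACG separated by 9 bases of any kind, whose CCACG part is bound by ATF6. The 250 bases before the RefSeq transcription start are printed 5′ to 3′ on the strand of the gene, from the GRCm38.p6 assembly, with each CCACG or its reverse complement in capitals. The Clic4 window is chr4:135272761-135273010 on the minus strand, and the Clic1 window is chr17:35049993-35050242 on the plus strand.
Clic4: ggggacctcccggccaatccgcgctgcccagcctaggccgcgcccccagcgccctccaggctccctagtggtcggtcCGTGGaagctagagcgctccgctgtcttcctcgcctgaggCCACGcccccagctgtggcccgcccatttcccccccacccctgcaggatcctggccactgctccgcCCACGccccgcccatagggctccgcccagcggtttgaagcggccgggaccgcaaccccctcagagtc
Clic1: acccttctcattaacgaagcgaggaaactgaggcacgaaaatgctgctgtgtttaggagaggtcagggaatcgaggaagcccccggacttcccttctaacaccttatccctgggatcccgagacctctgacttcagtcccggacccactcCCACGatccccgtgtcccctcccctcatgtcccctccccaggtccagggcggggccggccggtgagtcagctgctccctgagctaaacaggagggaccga

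Clic4 held 3 copies of CCACG, beginning 173, 133 and 67 bases before the start, and 1 CCAAT. The Clic1 window held 1 CCACG, 100 bases before the start, and no CCAAT. Clic3 (chr2:25456593-25456842) held neither motif, Clic5 (chr17:44188322-44188571) held 1 CCACG beginning 36 bases before an annotated start whose following bases were not found in the reference transcripts, and Clic6 had no entry. Among 32851 promoter windows of the same length, searched on both strands, 28.3% held CCACG, 33.8% held CCAAT and 0.113% held the full element. No member's window held the full element. The matches describe letters in these windows and are not measured binding sites.

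FPKM is a value per transcript length, so the levels of the members can be set side by side. Clic4 and Clic1 were at levels far above those of the other members and together made up 85.3% to 90.9% of the summed CLIC FPKM in Atf6+/+ and 87.4% to 89.8% in Atf6-/- libraries. The mean of Clic4 exceeded that of 93.2% of the genes tested and that of Clic1 exceeded 90.8%. Clic6 stood near the middle, above 51.2% of genes, and Clic5 and Clic3 stood above 36.8% and 29.2%.

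The order of levels was the same in most libraries. Clic4 was above Clic1 in 10 of 11 libraries, the exception being Atf6+/+ replicate 4. Clic1 was above Clic6, and Clic6 above Clic5, in 11 of 11. Clic5 was above Clic3 in 6 of 6 Atf6-/- libraries but in only 3 of 5 Atf6+/+ libraries, so these neighbours were not separated by their spread in Atf6+/+ cochleae. Summed over the 5 genes, CLIC transcript averaged 148 ± 11.5 FPKM (SD, n = 5) in the Atf6+/+ group, against 155 ± 8.03 FPKM (SD, n = 6) in the Atf6-/- group, with overlapping ranges.

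**Figure D1:**
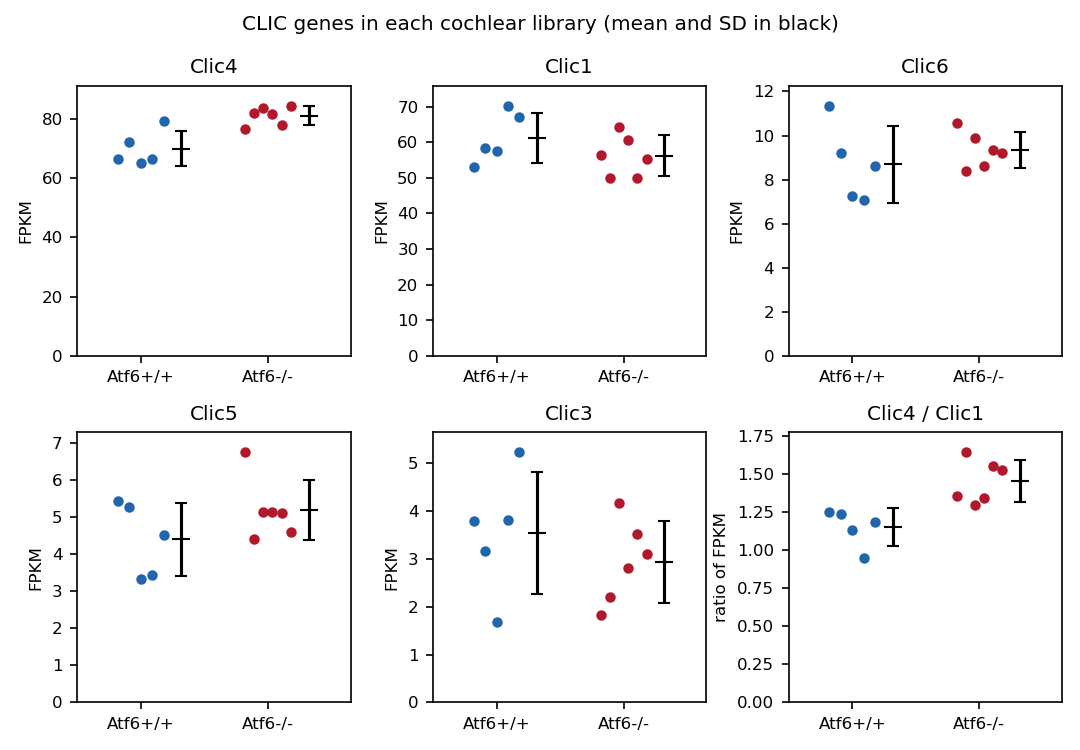
Level of each CLIC gene in FPKM (vertical axes, from 0) and the ratio of Clic4 to Clic1 (last panel) in every library, Atf6+/+ in blue (n = 5) and Atf6-/- in red (n = 6), with the mean and SD in black. Only Atf6+/+ replicate 5 kept the Clic4 groups from separating, and the other 4 genes overlapped widely. The ratio, chosen after the values of both genes had been seen, did not overlap between the groups, which is a description.

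Clic4 is a widely expressed member with a role in endothelial tube formation, and it can move to the nucleus in TGF-β signalling. It was listed at 66.4, 72.1, 64.9, 66.5 and 79.3 FPKM in Atf6+/+ replicates 1 to 5. In Atf6-/- libraries it ran from 76.4 to 84.2 FPKM, with a median of 81.7. In Atf6+/+, 4 of 5 libraries lay below the lowest Atf6-/- library, and the highest, replicate 5, lay inside the Atf6-/- range. The means were 69.8 ± 5.97 (SD, n = 5) and 80.9 ± 3.18 FPKM (SD, n = 6), which is 1.16-fold higher, or 0.21 on the log2 scale (SE 0.055). The difference was 0.19 with the marrow score as a covariate and 0.16 without Atf6+/+ replicates 3 and 4, and it ran from 0.19 to 0.26 when each library was left out. Clic4 also had the smallest spread of the family, with a coefficient of variation of 8.55% in Atf6+/+ and 3.93% in Atf6-/- libraries.

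Clic1 is abundant in many cells and takes part in phagosome acidification in macrophages. Its values were 53.1, 58.3, 57.5, 70.2 and 67.0 FPKM in Atf6+/+ replicates 1 to 5. Atf6-/- libraries ran from 50.0 to 64.4 FPKM, with a median of 55.9. The groups overlapped, and the highest libraries were Atf6+/+ replicates 4 and 5. Means were 61.2 ± 7.11 (SD, n = 5) and 56.2 ± 5.76 FPKM (SD, n = 6), giving -0.12 on the log2 scale (SE 0.086). This was -0.098 with the marrow score as a covariate and -0.082 without Atf6+/+ replicates 3 and 4.

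The ratio of Clic4 to Clic1 does not depend on the scaling of a library. It was looked at after the values of both genes had been seen and is a description. It sets a member with a higher mean in Atf6-/- libraries over one with a lower mean, so the choice itself favours separation. How often other pairs of genes separate was not counted. The ratio was 1.25, 1.24, 1.13, 0.947 and 1.18 in Atf6+/+ replicates 1 to 5 and 1.30 to 1.64 in Atf6-/- libraries, so the groups did not overlap. The means were 1.15 ± 0.123 (SD, n = 5) and 1.45 ± 0.139 (SD, n = 6). As a share of the summed family, Clic4 made up 44.0% to 48.7% in Atf6+/+ and 50.0% to 55.8% in Atf6-/- libraries.

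Clic5, the stereocilium member, was listed at 5.43, 5.27, 3.34, 3.43 and 4.52 FPKM in Atf6+/+ replicates 1 to 5. It ran from 4.42 to 6.74 FPKM in Atf6-/- libraries, with a median of 5.12. The low values were Atf6+/+ replicates 3 and 4, the high value was Atf6-/- replicate 1, and the remaining libraries of both genotypes overlapped. The means of 4.40 ± 0.987 (SD, n = 5) and 5.19 ± 0.820 FPKM (SD, n = 6) gave a log2 fold change of 0.25 (SE 0.148). That value became 0.022 without Atf6+/+ replicates 3 and 4, and -0.14 with the marrow score as a covariate.

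Clic6, known for binding dopamine receptors and for its level in choroid plexus, was also lowest in Atf6+/+ replicates 3 and 4. It was listed at 11.3, 9.21, 7.24, 7.07 and 8.60 FPKM in Atf6+/+ replicates 1 to 5 and at 8.40 to 10.6 FPKM in Atf6-/- libraries, with a median of 9.28. Atf6+/+ replicate 1 was the highest library of all, so the Atf6-/- range lay inside that of Atf6+/+. The log2 fold change was 0.12 (SE 0.114), from means of 8.69 ± 1.73 (SD, n = 5) and 9.34 ± 0.804 FPKM (SD, n = 6). It became -0.051 without Atf6+/+ replicates 3 and 4, and -0.14 with the marrow score as a covariate.

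Clic3, which binds the atypical MAP kinase ERK7, was the least abundant and the most variable member. Its values were 3.78, 3.17, 1.69, 3.82 and 5.22 FPKM in Atf6+/+ replicates 1 to 5 and 1.83 to 4.17 FPKM in Atf6-/- libraries, with a median of 2.95. The groups overlapped, and both the lowest and the highest library were Atf6+/+. The coefficient of variation was 36.1% in Atf6+/+ and 29.1% in Atf6-/- libraries. The log2 fold change was -0.22 (SE 0.266), and it ran from -0.46 to -0.066 when each library was left out. It was -0.40 with the marrow score as a covariate and -0.47 without Atf6+/+ replicates 3 and 4.

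**Figure D2:**
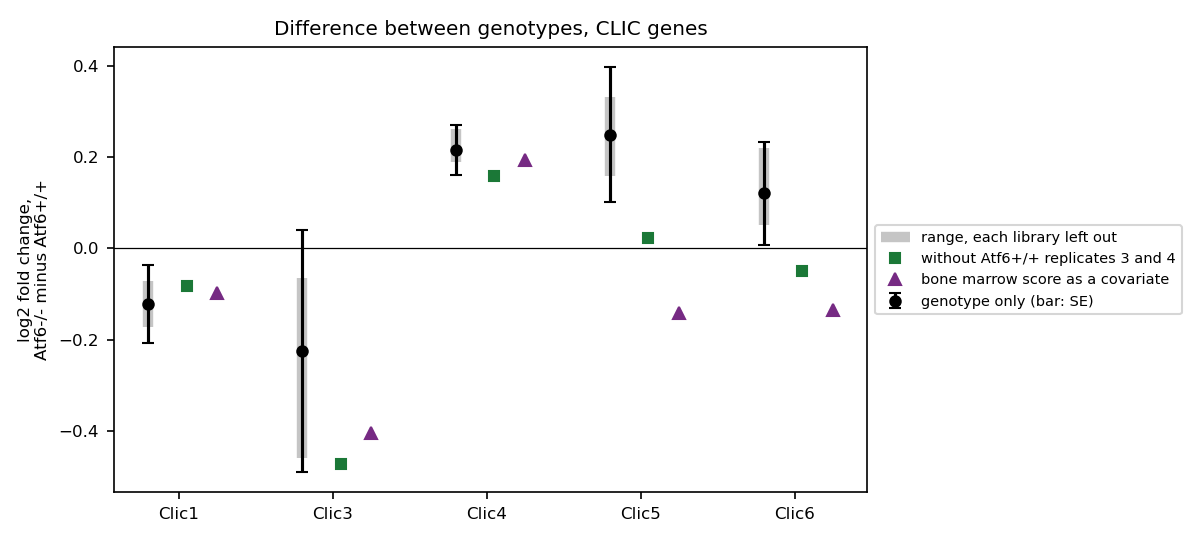
Log2 fold change, Atf6-/- minus Atf6+/+, of each CLIC gene (vertical axis). Black points show the fit with genotype only, with SE bars. Grey bars show the range when each library is left out. Squares are without Atf6+/+ replicates 3 and 4, and triangles have the marrow score as a covariate. Clic4 stayed at 0.16 or above and Clic1 and Clic3 stayed below 0 in all of these fits, whereas Clic5 went from 0.25 to -0.14 and Clic6 from 0.12 to -0.14 with the covariate.

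Over the family, 3 members had positive and 2 had negative log2 fold changes, with a median of 0.12, beside a median of -0.013 and 45.3% of genes with a positive log2 fold change over all genes tested. With the marrow score as a covariate only Clic4 was above 0, at 0.19. Clic1, Clic3, Clic5 and Clic6 then stood at -0.098, -0.40, -0.14 and -0.14. Genes with an unadjusted p up to 0.05 and a log2 fold change beyond 0.05 either way were also counted, a reading of the low fold-change rule of the study that is called the unadjusted threshold below. By that rule 1 of 5 members, Clic4, was called higher and 0 lower, beside 4.48% of all genes called higher, 5.37% called lower and 9.85% called in either direction. Over all genes this was 724 higher and 868 lower, and 1396 higher and 460 lower once the values were rescaled to a common sum (TPM). On that scale the median of all genes was 0.041 and the 5 members kept their signs, at -0.066 for Clic1, -0.17 for Clic3, 0.27 for Clic4, 0.31 for Clic5 and 0.18 for Clic6. None of the members passed an adjusted p under 0.05 in limma, beside 0.0680% of all genes, or 11 genes. No member had groups without overlap, beside 1.25% of all genes, or 0.643% counting those higher in Atf6-/- libraries. Because the members were chosen with this contrast in view, nothing about the family is read from these counts.

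The spread among libraries of the same genotype had no part in choosing the members, and it was tested. Each gene's log2 values were centred within genotype, and the 10 pairs of members were compared by exact permutation within genotype, with 86400 arrangements. Clic5 and Clic6 moved together over the 11 libraries. Pearson's r was 0.890 (exact permutation p = 0.000741, adjusted p = 0.00741 over 10 pairs) and Spearman's rho was 0.929 (exact permutation p = 0.00102, adjusted p = 0.0102). Without the 2 libraries farthest from the median of Clic6, r was 0.891. Without Atf6-/- replicate 1 alone, the library with the highest Clic5, r was 0.894 and the exact permutation adjusted p was 0.0708, so the call was lost.

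The relation was also taken without the 2 libraries that had the highest marrow score. Without Atf6+/+ replicates 3 and 4, r was 0.739 over 9 libraries (exact permutation p = 0.0153) and the adjusted p was 0.0764, also by exact permutation, so it was lost there too. Within the 6 Atf6-/- libraries alone, r was 0.816 (exact permutation p = 0.0306) and rho was 0.754 (exact permutation p = 0.111). With the marrow score removed from both genes, r over 11 libraries was 0.726. Clic5 and Clic6 themselves had an r of -0.886 and -0.756 with the marrow score within genotype, whereas Clic1, Clic3 and Clic4 had an r of 0.093, -0.22 and -0.14.

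None of the other 9 pairs passed the adjusted threshold over all 11 libraries. Clic3 and Clic4 came next, with r = 0.60 (exact permutation p = 0.0973, adjusted p = 0.487). Clic4 and Clic1, the pair of abundant members, had an r of 0.359 (exact permutation p = 0.342, adjusted p = 0.826). Other pairs moved without Atf6+/+ replicates 3 and 4. Clic4 with Clic5 went from 0.083 to -0.697 (exact permutation p = 0.0134, adjusted p = 0.0764) and Clic4 with Clic6 from 0.033 to -0.747 (exact permutation p = 0.0699, adjusted p = 0.233), and no pair passed the adjusted threshold over these 9 libraries.

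The members were then compared with markers of 16 cell types in the same way, giving 80 relations, of which 14 had an unadjusted p under 0.05 and 1 an adjusted p under 0.05. That one was between Clic6 and the 7 outer hair cell markers, among them prestin (Slc26a5) and oncomodulin (Ocm), with r = 0.916 (exact permutation p = 0.000475, adjusted p = 0.0380) and rho = 0.873 (exact permutation p = 0.00508, adjusted p = 0.136). The r without the 2 libraries farthest from the median of the marker score was 0.902. The adjusted call was lost without Atf6+/+ replicates 3 and 4, where r was 0.813 (exact permutation adjusted p = 0.338), and in 9 of the 11 fits that left out 1 library.

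The summed outer hair cell markers were 110, 90.5, 59.5, 63.0 and 76.1 FPKM in Atf6+/+ replicates 1 to 5 and 83.8 to 141 FPKM in Atf6-/- libraries. They were lowest in Atf6+/+ replicates 3 and 4, the libraries in which Clic5 and Clic6 were also lowest. The summed B cell markers ran the other way, at 10.1, 9.06, 29.9, 33.5 and 15.6 FPKM in Atf6+/+ replicates 1 to 5 and at 7.19 to 13.3 FPKM in Atf6-/- libraries. The part of these cells in the levels of Clic5 and Clic6 was not tested.

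**Figure D3:**
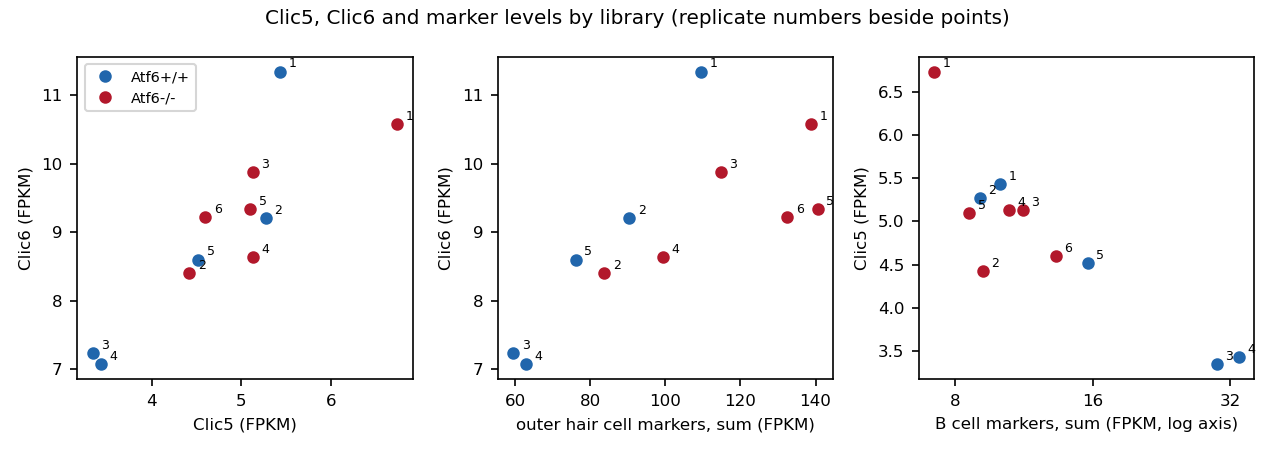
Each point is 1 library, Atf6+/+ in blue and Atf6-/- in red, with its replicate number. Clic6 is plotted against Clic5 and against the sum of 7 outer hair cell markers, and Clic5 against the sum of 6 B cell markers on a log axis, all in FPKM. Atf6+/+ replicates 3 and 4 sit apart at the lowest Clic5 and Clic6 and the highest B cell marker levels.

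Clic5, a known hair bundle gene, had an r of 0.839 with outer hair cell markers (exact permutation p = 0.00988, adjusted p = 0.139) and 0.737 with the 9 hair cell markers measured (exact permutation p = 0.0343, adjusted p = 0.229). Its strongest relation was with B cell markers, at r = -0.924 (exact permutation p = 0.00185, adjusted p = 0.0593) and rho = -0.898 (exact permutation p = 0.00167, adjusted p = 0.0866). Clic6 had an r of -0.858 with B cell markers (exact permutation p = 0.00870, adjusted p = 0.139), 0.837 with supporting cell markers and 0.816 with hair cell markers (exact permutation adjusted p = 0.139 for each). None of these passed the adjusted threshold. They were smaller without Atf6+/+ replicates 3 and 4. Over those 9 libraries Clic5 had an r of 0.630 with outer hair cell, 0.430 with hair cell, 0.277 with supporting cell and -0.808 with B cell markers. Clic6 had 0.617 with hair cell, 0.569 with supporting cell and -0.613 with B cell markers (exact permutation adjusted p of at least 0.338 for all 7). With choroid plexus markers over 11 libraries, r was 0.636 for Clic5 (exact permutation p = 0.0395, adjusted p = 0.2425). For Clic6 it was 0.512 (exact permutation p = 0.0949, adjusted p = 0.345). Without Atf6+/+ replicates 3 and 4 these were 0.415 and 0.21.

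Clic1 had a different profile. Its highest r was with the 9 macrophage markers, at 0.822 (exact permutation p = 0.00222, adjusted p = 0.0593) with rho = 0.873 (exact permutation p = 0.00216, adjusted p = 0.0866), and 0.856 without the 2 libraries farthest from the median. It was 0.847 without Atf6+/+ replicates 3 and 4 (exact permutation p = 0.00463, adjusted p = 0.338), and 0.686 under TPM (exact permutation adjusted p = 0.300). The summed macrophage markers were 183, 191, 203, 249 and 271 FPKM in Atf6+/+ replicates 1 to 5, so replicates 4 and 5, the highest for Clic1, were also the highest for these markers. In Atf6-/- libraries they ran from 129 to 238 FPKM, and the library with the highest Clic1, replicate 3, had the highest sum. Clic1 also had an r of 0.789 with bone markers (exact permutation p = 0.0124, adjusted p = 0.139). The part of macrophages in the level of Clic1 was not tested.

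Over all 11 libraries, Clic4 and Clic3 had no relation at an unadjusted p under 0.05. For Clic4 the value farthest from 0 was an r of -0.60 with neuron markers (exact permutation p = 0.155), and its r with endothelial markers was 0.043 (exact permutation p = 0.930). The endothelial sum was 165 to 223 FPKM in Atf6+/+ libraries, against 176 to 214 FPKM in Atf6-/- libraries. Without Atf6+/+ replicates 3 and 4, Clic4 had an r of 0.718 with endothelial markers (exact permutation p = 0.124), 0.781 with bone, 0.712 with B cell and -0.63 with outer hair cell markers, none at an unadjusted p under 0.05 by exact permutation. Clic3 lay between -0.45 and 0.46 with all 16 lists over 11 libraries. Without those 2 libraries it had an r of 0.702 with erythroid markers (exact permutation p = 0.0470, adjusted p = 0.481).

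**Figure D4:**
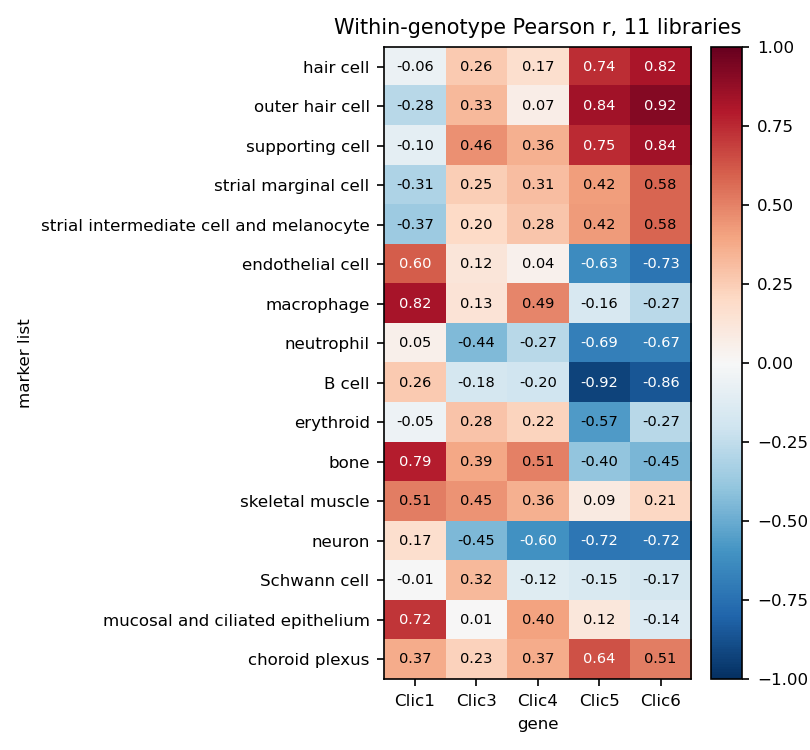
Pearson's r (colour and printed value) between each CLIC gene (columns) and the mean log2 level of each marker list (rows), after centring within genotype, over 11 libraries. Clic5 and Clic6 share high values with hair cell, outer hair cell and supporting cell lists and low values with the B cell list, at -0.92 and -0.86, which for hair cell and supporting cell lists fell in Clic5 to 0.430 and 0.277 without Atf6+/+ replicates 3 and 4, while Clic1 is highest with macrophage and bone markers, at 0.82 and 0.79.

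Other genes of the same biology were taken from fixed lists. Of 33 chloride channel genes outside the CLIC family, 28 were tested. Among them 16 had positive and 12 had negative log2 fold changes, and the median was 0.030, beside -0.013 over all genes. At the unadjusted threshold 2 were higher and 1 was lower, and none passed the adjusted threshold, beside 9.85% and 0.0680% of all genes. The list median was 0.0038 with the marrow score as a covariate and 0.087 under TPM, beside -0.014 and 0.041 over all genes. Lrrc8a, the essential subunit of the volume-regulated anion channel, was at 20.2 ± 0.962 FPKM (SD, n = 5) in Atf6+/+ libraries and at 22.1 ± 0.656 FPKM (SD, n = 6) in Atf6-/- libraries without overlap, 0.13 higher on the log2 scale (adjusted p = 0.407 in limma). Its partner subunit Lrrc8d stood at 0.23 (limma, adjusted p = 0.442), and at 0.083 with the marrow score as a covariate. The remaining subunits Lrrc8b, Lrrc8c and Lrrc8e, named after their values were seen, stood at 0.26, 0.13 and 0.31 (limma, adjusted p from 0.515 to 0.575). Lrrc8b, Lrrc8d and Lrrc8e were lowest in Atf6+/+ replicates 3 and 4, the libraries with the highest marrow score. The anoctamin Ano3 was the gene lower at the unadjusted threshold, with means of 6.12 and 4.99 FPKM and a difference of -0.29 on the log2 scale (adjusted p = 0.450 in limma), or -0.16 with the covariate. Clcn4, a chloride and proton exchanger of endosomes, stood at -0.082, the tweety gene Ttyh1 at 0.23 and the scramblase Ano6 at 0.030.

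The stereocilium base and ezrin, radixin and moesin (ERM) list holds the known neighbours of Clic5. All 11 genes were tested, 8 with a positive and 3 with a negative log2 fold change, and the median was 0.14. At the unadjusted threshold 1 was higher and 1 lower, and none passed the adjusted threshold, beside 9.85% and 0.0680% of all genes. Tprn, the taperin gene, was the higher one, at 9.98 ± 1.60 FPKM (SD, n = 5) in Atf6+/+ libraries and at 11.6 ± 0.694 FPKM (SD, n = 6) in Atf6-/- libraries, 0.23 higher on the log2 scale (limma, adjusted p = 0.481). Ripor2, a gene that hair bundles need, was the lower one, at 11.2 ± 1.93 (SD, n = 5) and 9.32 ± 0.688 FPKM (SD, n = 6), with -0.24 (limma, adjusted p = 0.491). With the marrow score as a covariate, none of the list was called, its median was -0.030, and Tprn and Ripor2 stood at 0.081 and -0.10. The covariate also lowered the calls over all 16169 genes, from 1592 to 849.

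The closest partners of Clic5 had values on both sides of 0. Rdx, the radixin gene, was at 29.4 ± 2.45 (SD, n = 5) and 30.7 ± 1.06 FPKM (SD, n = 6), 0.063 apart on the log2 scale (limma, adjusted p = 0.706). Myo6, the minus-end motor at the stereocilium base, stood at 0.26 (limma, adjusted p = 0.562), and Ptprq at -0.24 (limma, adjusted p = 0.780). Myo6 was lowest in Atf6+/+ replicates 3 and 4, at 19.2 and 15.7 FPKM, as were Clic5 and Clic6. The ERM scaffolds Slc9a3r1 and Slc9a3r2 stood at 0.28 and 0.14, moesin (Msn) at -0.14 and ezrin (Ezr) at 0.14. With the marrow score as a covariate Slc9a3r1, the gene with the highest value of the list, turned to -0.025 and Msn to 0.089.

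Of 9 binding partners known from outside the hair bundle, 7 were tested, with 3 higher and 4 lower, a median of -0.030, and none called at either threshold, beside the same shares of all genes. The most abundant were Ppm1a, a phosphatase of phosphorylated SMADs that CLIC4 is known to counter, at -0.030, Smad3 at 0.12, and Hivep2, the Schnurri-2 gene, at 0.078. Smad3 and Hivep2 stood at 0.034 and 0.015 with the marrow score as a covariate. Of 22 glutathione transferase fold genes, 21 were tested, with 5 higher and 16 lower. Their median was -0.11, and none was called at either threshold, beside 9.85% and 0.0680% of all genes. The most abundant were Gstp1 at -0.072, Gstm1 at 0.093 and Gstm5 at -0.022. The omega class genes Gsto1 and Gsto2, named after their values were seen because CLIC proteins resemble this class most, stood at -0.26 and -0.27 (limma, adjusted p = 0.632 and 0.748).

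**Figure D5:**
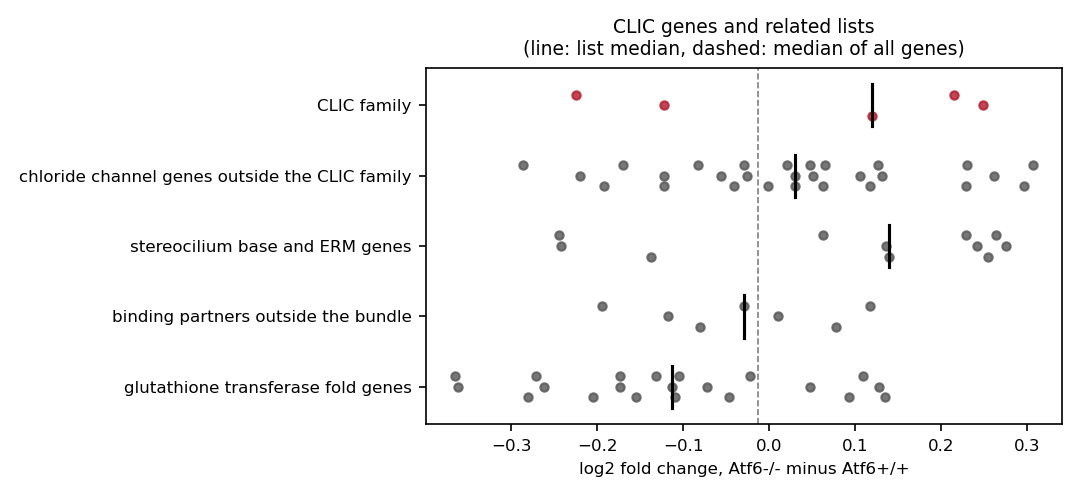
Log2 fold change, Atf6-/- minus Atf6+/+ (horizontal axis), of each tested gene in the CLIC family (red) and 4 related lists (grey). Vertical lines mark list medians and the dashed line marks the median of all genes tested, -0.013. The list medians lie at 0.12, 0.030, 0.14, -0.030 and -0.11 from top to bottom, and the values of each list reach both sides of 0.

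For each member, the genes with the most similar course over the 11 libraries were taken from 13610 other genes whose mean reached 1 FPKM, by Pearson's r of log2 values centred within genotype, as a description. They were Fzd5 (0.967), Rplp0 (0.963) and Phf1 (0.947) for Clic1, and Crat (0.923), Szrd1 (0.922) and Tlcd1 (0.899) for Clic3. Clic4 had lower maxima, with Tpbg (0.899), Lpar6 (0.888) and Tspan9 (0.871). The genes closest to Clic5 were Xpa (0.955), Ift88 (0.944), a ciliary transport gene, and Creb3l4 (0.938), and those closest to Clic6 were Grhl1 (0.971), Rb1 (0.933) and Arg2 (0.927). All of these values come from the same 11 libraries, and the part of their tissue makeup in them was not tested.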

How the data were processed

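The authors sequenced stranded mRNA libraries of whole cochleae, aligned reads to GRCm39 with HISAT2 2.0.4 and estimated expression with RSEM, release 1.2.12 in the submitters' processing notes. They tested differential expression with DESeq2 1.4.5, whose results were not used here. The deposited values are FPKM per gene and library, in 1 table per genotype, each library normalised on its own. The analysis had no read counts to work from, so only the sequencing target that the study's methods state is known, not the depth reached by each library, and counting error could not be estimated. FPKM summed to 474616 to 537926 per Atf6+/+ library and 462005 to 502419 per Atf6-/- library.

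Genes of both tables were matched on their NCBI identifiers, and log2(FPKM + 0.1) was used, which understates changes of low genes. Genes averaging 0.1 FPKM or more were fitted in R 4.3.3 by limma 3.58.1, with its trended prior variance, genotype as the only term, two-sided, with Benjamini-Hochberg adjustment over all genes tested. The study's DESeq2 needs counts and was not run. Correlations used Python 3.11.15 with scipy 1.17.1, numpy 2.4.6 and pandas 2.3.3, with two-sided exact permutation within genotype, the smallest possible p being 1.16e-05. Figures used matplotlib 3.10.9. The fits and correlations were tested on simulated data.

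The members and gene lists were chosen with earlier results of these data known. Genes are named as members, as Atf6, as list genes past the unadjusted threshold, as up to 3 most abundant genes of a list, or as the 3 genes most alike to a member. Rdx, Myo6, Ptprq, Ezr, the remaining Lrrc8 subunits and the omega class genes were named after their values were seen. Alternative settings comprised a pseudocount of 1 or 0.01, leaving out the filter, a higher minimum of 1 FPKM, TPM, scaling by median of ratios, robust variance, a replicate block, the marrow score as a covariate and leaving out each library. Leaving out Atf6+/+ replicates 3 and 4 together and removing the marrow score from a correlation were chosen after seeing the data. Promoter sequences are from RefSeq on GRCm38.p6, not the authors' build; 4 of 5 members had an entry by symbol, the start given for Clic5 could not be matched to a reference transcript, and no coordinates of the files were converted.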

Additional observations from a re-analysis of the deposited data

Results flagged for a closer look

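A library far from the rest of its group was looked for in 62 groups of values, of which chance alone would mark about 1 in 20, and 6 were found. Clic5 in Atf6-/- replicate 1 was listed at 6.74 FPKM, with the next library of the group at 5.13. Lrrc8a was at 23.4 FPKM in Atf6-/- replicate 2, with the next at 22.2. Ripor2 was at 8.03 FPKM in Atf6-/- replicate 5, with the next at 9.26. Ttyh1 was at 33.2 FPKM in Atf6+/+ replicate 3, with the next at 40.3. The summed neutrophil markers reached 1203 FPKM in Atf6-/- replicate 4, with the next at 349.6, and the summed erythroid markers reached 32085 FPKM in Atf6+/+ replicate 5, with the next at 11061. Atf6-/- replicate 1, the library with the highest Clic5, also had the lowest marrow score, at 1.72.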

How the results depend on the processing

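The log2 fold changes of Clic1, Clic3 and Clic4 kept their sign in every fit run, and Clic5 and Clic6 both moved to -0.14 with the marrow score as a covariate. Leaving out each library gave -0.17 to -0.071 for Clic1, -0.46 to -0.066 for Clic3, 0.19 to 0.26 for Clic4, 0.16 to 0.33 for Clic5 and 0.052 to 0.22 for Clic6, with 1 to 3 members past the unadjusted threshold, a description since this contrast selected them. The 3 came without Atf6+/+ replicate 1, a fit in which 1865 of 16172 genes were called, against 1592 of 16169 over all libraries. The number of list genes called at that threshold moved with small changes. Over all genes, 849 were called with the covariate, against 1592 with genotype only. For chloride channels it was 5 under TPM, 1 to 4 when a library was left out and 1 without Atf6+/+ replicates 3 and 4. For the stereocilium base it was 4 under TPM, 0 with the covariate, 0 to 5 when a library was left out and 0 without those 2. For partners it was 0 to 1 when a library was left out. For glutathione transferase fold genes it was 1 without the filter, 3 with the covariate, 3 without those 2 libraries and 0 to 1 when a library was left out. No list gene passed the adjusted threshold in any of these fits. On the TPM scale the median over all genes was 0.041 instead of -0.013, 1396 genes were called higher and 460 lower at the unadjusted threshold instead of 724 and 868, and Clic4 stood at 0.27.

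The relation of Clic5 with Clic6 ran from 0.860 to 0.916 when a library was left out. The number of pairs called was 0 without Atf6-/- replicate 1, where exact permutation gave an adjusted p of 0.0708, and otherwise 1, and it was 0 without Atf6+/+ replicates 3 and 4, where r was 0.739. The relation of Clic6 with outer hair cell markers was 0.919 under median-of-ratios scaling (exact permutation adjusted p = 0.0528, 0 relations called), 0.869 to 0.940 when a library was left out, with 0 to 1 relations called, and 0.813 without those 2 libraries, with 0 called. Signs of some list genes turned. With the marrow score as a covariate Ano6 went from 0.030 to -0.025, Msn from -0.14 to 0.089 and Slc9a3r1 from 0.28 to -0.025. Under TPM Ppm1a was 0.027 and Gstm5 0.035. When a library was left out, Gstm5 ran from -0.044 to 0.016 and Gstp1 from -0.13 to 0.0027. Gstm1 stayed above 0 in those fits but ran from 0.0092 to 0.19. These causes were not tested; fits that left out libraries had fewer samples.

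Libraries of the same replicate number had correlated deviations of 0.095, -0.12, -0.21, 0.12 and -0.040 for numbers 1 to 5, and in 1 of 5 was the own number the closest. With so few libraries this check cannot tell whether the numbers pair them. The study used littermates as controls, and the labels give no litter. With the replicate block, 1078 genes were called at the unadjusted and 4 at the adjusted threshold, instead of 1592 and 11. Atf6-/- replicate 6 has no partner, so the block also takes it out of the comparison, and leaving out that library without a block gave 1197 and 9. Clic4 was 0.20 and Clic5 0.28 with the block, Clic1 -0.12, Clic3 -0.25 and Clic6 0.12, and Gstm5 turned to 0.016. Without read counts, differences among low genes such as Clic3 and Clic5 cannot be set against counting error.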
